A study of Rattus norvegicus with 32 samples.

Results

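The 200 genes described here are transcripts that were abundant in a few libraries of single rat neurons and absent from most of the others. They were chosen from the measured values: among the named genes (without the spike-in RNAs and without names that begin with LOC, RGD or Mir), those with a count of 0 in 16 or more of the 32 libraries were ranked by their highest level in any library, and the 200 highest were kept. They are 200 of 17216 gene rows, and of 10513 genes that met the limit of 16 zeros. Levels are CPM, counts scaled to the same total of gene counts in every library, and a library is said to hold a gene where the gene reached 10 CPM or more. The study took 16 dendrite samples and 16 soma samples from 16 wildtype hippocampal neurons, labelled pyramidal, of Sprague Dawley rats at embryonic day 18 that had been kept in primary culture for 15 days. The dendrites of a cell and its soma were drawn into separate micropipettes, and the cells came from several cultures over several days. PolyA RNA of each sample went through 3 rounds of aRNA amplification, in which an RNA polymerase copies the cDNA linearly, before stranded libraries were made and sequenced as paired ends. A number in each title ties the dendrites to the soma of the same neuron.

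A neuron holds many mRNA species in few copies each, and transcription runs in bursts, so that a single cell can hold many copies of an mRNA at a moment when its neighbour holds none. A dendrite carries a selected and smaller pool of mRNAs than the soma, moved there along microtubules in granules and translated near synapses. Where the starting material is 1 cell or less, a scarce mRNA can also be missed at the first reverse transcription, and every later round of amplification copies the outcome of that first step. A count of 0 therefore says that no read was assigned, and absence from the cell and loss before sequencing cannot be told apart in it. Fewer copies in a soma or dendrite and less RNA collected from it cannot be told apart either.

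Total gene counts ran from 229149 to 24439768 in the dendrite libraries and from 878125 to 24721811 in the soma libraries. In the shallowest library, the dendrites of neuron 25, a single count was worth 4.36 CPM. The pyramidal label was checked against Neurod6, a transcription factor of pyramidal neurons, which had 10 or more counts in 16 of 16 dendrite and 16 of 16 soma libraries, with a median of 581 CPM in dendrites and 840 CPM in somata. Slc17a7, the main vesicular glutamate transporter of mature cortical pyramidal neurons, reached 10 counts in only 2 dendrite and 5 soma libraries. Markers of inhibitory neurons were present in several neurons: Gad1, which makes GABA, was held by 10 dendrite and 7 soma libraries, and Slc32a1, the vesicular GABA transporter, by 5 dendrite and 6 soma libraries. The pairing is in doubt for 3 neurons. Inhibitory markers were high in the dendrites of neurons 7 and 8 and the somata of neurons 8 and 9, and low in the dendrites of neuron 9 and the soma of neuron 7. The summed level of the 20 measured markers was 4192 CPM in dendrites 7, 2969 CPM in dendrites 8 and 102 CPM in dendrites 9, against 250 CPM in soma 7, 17820 CPM in soma 8 and 2421 CPM in soma 9. On these markers the numbers 7 and 9 run crosswise between the compartments, while both compartments of neuron 8 were high. The markers do not tell which of the high dendrites belong to which of the high somata. The main pairing results are therefore also given without neurons 7, 8 and 9. Unlike compartments of 1 neuron were not limited to these: the sum was 6062 CPM in dendrites 15, the highest of any dendrites, against 688 CPM in soma 15, and 1572 CPM in dendrites 18 against 140 CPM in soma 18. The dendrites of neuron 20 shared 8 of their 16 held members with the dendrites of neuron 13 and none with their own soma.

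Most of the values were 0, and of the values above 0 more lay below 10 CPM than at or above it. Of the 6400 values that 200 genes have in 32 libraries, 3997 (62.5%) were 0, 1371 (21.4%) were above 0 and below 10 CPM, 570 (8.91%) lay between 10 and 100 CPM, and 462 (7.22%) were at 100 CPM or more. A member was held by 1 to 13 libraries, with a median of 5, and had a count of 0 in 16 to 31 libraries, with a median of 19. Its highest library alone supplied a median of 64.9% of its CPM summed over all libraries. The highest library stood at 2 times or more the second highest for 159 members and at 10 times or more for 45. These shapes follow in part from the rule, which asked for zeros and ranked by the maximum, and they are given as a description.

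**Figure D1:**
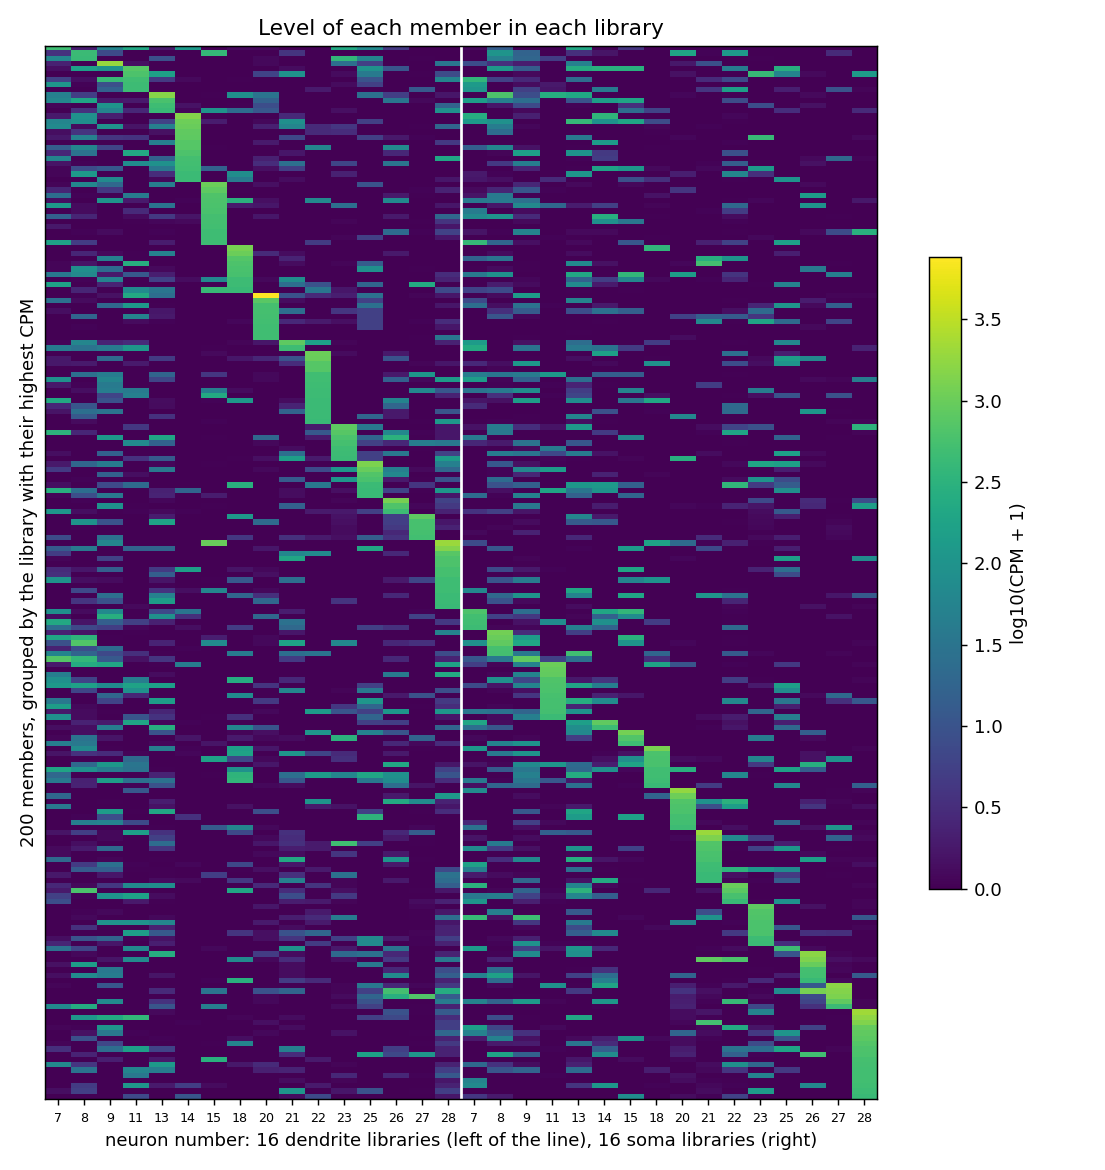
Level of each of the 200 members (rows) in the 16 dendrite libraries (left of the white line) and 16 soma libraries (right), as log10(CPM + 1), with rows grouped by the library in which the member was highest. The bright blocks along the diagonals are those highest libraries, and most of the rest of each row is dark, since 62.5% of the values were 0.

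Both limits of the rule cut through a continuous range. The last members inside the limit of 200 were Nat10 at 423.9, Scml4 at 423.4 and Ccdc176 at 423.3 CPM in their highest libraries, and the first outside were Cgrrf1 at 422.2, Pcgf6 at 421.8 and Nmral1 at 419.5 CPM. At the limit of 16 zeros, 29 members had exactly 16, led by Adam1a, Giot1 and Pls3. There were 39 genes with 15 zeros and a maximum past that of the last member, and they stayed out; the highest were Mfsd9 at 7733 CPM, Ss18 at 2656 CPM and Tes at 2440 CPM.

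The member with the highest level was Adam1a, which encodes an ADAM-family surface protein known from sperm. It reached 7685 CPM (33085 counts) in the dendrites of neuron 20, and 222, 26.2 (only 6 counts) and 23.99 CPM in the dendrites of neurons 11, 25 and 13. Among somata it reached 133 CPM in neuron 9, and the soma of neuron 20 had 0 counts. Its median was 0.605 CPM in the dendrites and 0 CPM in the somata, so the groups overlapped near 0 and parted only in single libraries.

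The next members peaked in other libraries, and several encode regulators of actin or of signalling. Wipf1, which binds WASP and promotes actin assembly, had 11.9 CPM in dendrites 28 and 2122 CPM in soma 28, with 54.1 CPM in soma 23 and less than 10 CPM elsewhere. Pls3, the actin-bundling plastin 3, had 1486 CPM in dendrites 13 and 204 CPM in the soma of that neuron, with 632 CPM in soma 8. Mob1a, an activator of the Hippo pathway kinases, had 1975 CPM in dendrites 28 and 988 CPM in dendrites 15, against at most 172 CPM in any soma, that of neuron 18. Ppm1h, a protein phosphatase, was held by 6 dendrite and 2 soma libraries and peaked at 1446 CPM in dendrites 28. Of these 4 genes, Pls3 was the only member that exceeded 100 CPM in both compartments of the neuron of its peak.

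Of the 12 highest members, 3 encode DNA-binding zinc finger proteins. Zfp26 peaked at 1915 CPM in dendrites 9, with 1.05 CPM in soma 9. Giot1, first described as a transcriptional repressor of the ovary, peaked at 1619 CPM in soma 27 and had 186 CPM in soma 14. Klf14, a Krüppel-like factor, was at 1444 CPM in dendrites 14 against 343 CPM in soma 14, and was also held by dendrites 8 at 92.8 CPM and by soma 7 at 258 CPM. Klf14 was thus high on both sides of neuron 14, whereas the partner libraries of the Zfp26 and Giot1 peaks were below 10 CPM.

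The remaining 4 of the 12 were soma peaks. Lactb, a mitochondrial serine protease-like protein that forms filaments, reached 1996 CPM in soma 21, with 150 CPM in dendrites 11. Kcnj14, an inwardly rectifying potassium channel, reached 1794 CPM in soma 20, was at 10.7 CPM in dendrites 11 and had 0 counts in 15 dendrite libraries. Rwdd3, which promotes sumoylation, reached 1758 CPM in soma 28 and 379 CPM in dendrites 11. Gadd45a, induced by DNA damage, reached 1621 CPM in soma 26 and 266 CPM in dendrites 13. In none of these 4 did the dendrites of the peak neuron hold the gene.

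A single library held 14 of the members, 7.0% of the 200, against 39.6% of the 3574 other genes with 16 or more zeros that any library held. This contrast follows in part from the ranking, since the other genes had lower maxima and the limit of 10 CPM was the same. With a limit of 100 CPM the members' own share was 34.5%. Egr2, an immediate early transcription factor, had 1222 CPM (1412 counts) in dendrites 26 and at most 7.31 CPM in any other library. Prr16, a regulator of cell size, had 913 CPM in soma 11 from 12199 counts, with 0 counts in all 31 other libraries. Slc31a2, a copper transporter of endosomes, had 822 CPM in soma 23 and at most 0.697 CPM elsewhere. Ptgs1, the cyclooxygenase that makes prostaglandin H2, had 713 CPM in dendrites 22, and Tp53i3, listed as a pseudogene in the RefSeq annotation, had 626 CPM in dendrites 28. These levels rested on 764 to 14873 counts, so they were not single reads scaled up in shallow libraries. Egr2 was the only member among 25 immediate early genes, and Slc31a1, the copper importer of the cell surface and a close relative of Slc31a2, was held by 7 libraries, none of them soma 23.

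Secreted signals and their binding proteins made up 8 members. The 43 listed neuropeptides and growth factors included 3 of them, Penk, Sst and Nts, and 35 of the 43 were among the other genes with 16 or more zeros. Penk, the precursor of the enkephalin opioid peptides, had 1017 CPM in dendrites 15, 61.3 CPM in dendrites 8, 45.0 CPM in dendrites 13 and 19.6 CPM in dendrites 9, and no soma held it. Nts, the precursor of neurotensin, had 218 CPM in dendrites 7 against 490 CPM in soma 7, and 88.8 and 76.6 CPM in the somata of neurons 14 and 11, whose dendrites did not hold it. Dendrites 9 and 21 held Nts too, from 219 and 76 counts. Cxcl1, a chemokine that attracts neutrophils and the only member among 28 immune genes, had 672 CPM in dendrites 27 against 1309 CPM in soma 27, and 282 CPM in dendrites 26. It was held by 4 dendrite libraries, those of neurons 25 to 28, and by 1 soma library. Dendrites 25 and 28 passed 10 CPM on only 4 and 17 counts of Cxcl1, against 16413 counts in dendrites 27. Igfbp5, a secreted binding protein of insulin-like growth factors, was held by 7 dendrite and 4 soma libraries; neuron 18 had 341 CPM in its dendrites against 485 CPM in its soma, and neuron 22 had 129 CPM in its dendrites against 60.5 CPM in its soma.

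Receptors made up 13 members, and Trhr was the clearest case of a transcript seen in both compartments of 1 neuron and nowhere else. Trhr encodes the receptor of thyrotropin-releasing hormone. It had 1228 CPM in the dendrites of neuron 18 against 365 CPM in the soma of neuron 18, and 0 counts in the other 30 libraries. Exactly 2 libraries held 17 of the members, and Trhr was the only member, 5.88%, in which both came from the same neuron; the share was 33 of 671 (4.92%) among the other genes with 16 or more zeros held by 2 libraries. The pattern of Trhr was thus shared by few genes, and about as often outside the members.

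Members also came from the listed glutamate and GABA receptor genes. Grik1, a kainate receptor subunit, had 1141 CPM in soma 8, 0.619 CPM in dendrites 8 and 53.7 CPM in dendrites 28. Gria4, an AMPA receptor subunit, was held by 5 dendrite and 5 soma libraries, with 16.6 CPM in dendrites 8 against 530 CPM in soma 8 and 40.5 CPM in dendrites 18 against 17.8 CPM in soma 18. For both Grik1 and Gria4, every library above 100 CPM was a soma.

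Of all 13 receptor members, 8 peaked in a dendrite library, against 107 of all 200 members. Htr2c, a serotonin receptor, had 1055 CPM in dendrites 14 against 94.5 CPM in soma 14, and both compartments of neurons 7 and 8 held it too. Mas1, a receptor of angiotensin fragments, had 628 CPM in dendrites 28 against 77.8 CPM in soma 28. Sstr4, a somatostatin receptor, had 589 CPM in dendrites 15 and 0 counts in the soma of that neuron. Cxcr4, the receptor of the chemokine Cxcl12, was held by the dendrites of neurons 28, 22 and 21 at 758, 72.8 and 62.2 CPM and had 0 counts in 16 of 16 somata. The library paired with the peak held the gene for 8 of the 13 receptors, against 41 of all 200 members; without neurons 7, 8 and 9 the numbers were 7 of 13 receptors and 32 of 199 members. This grouping was made after the values were seen.

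**Figure D2:**
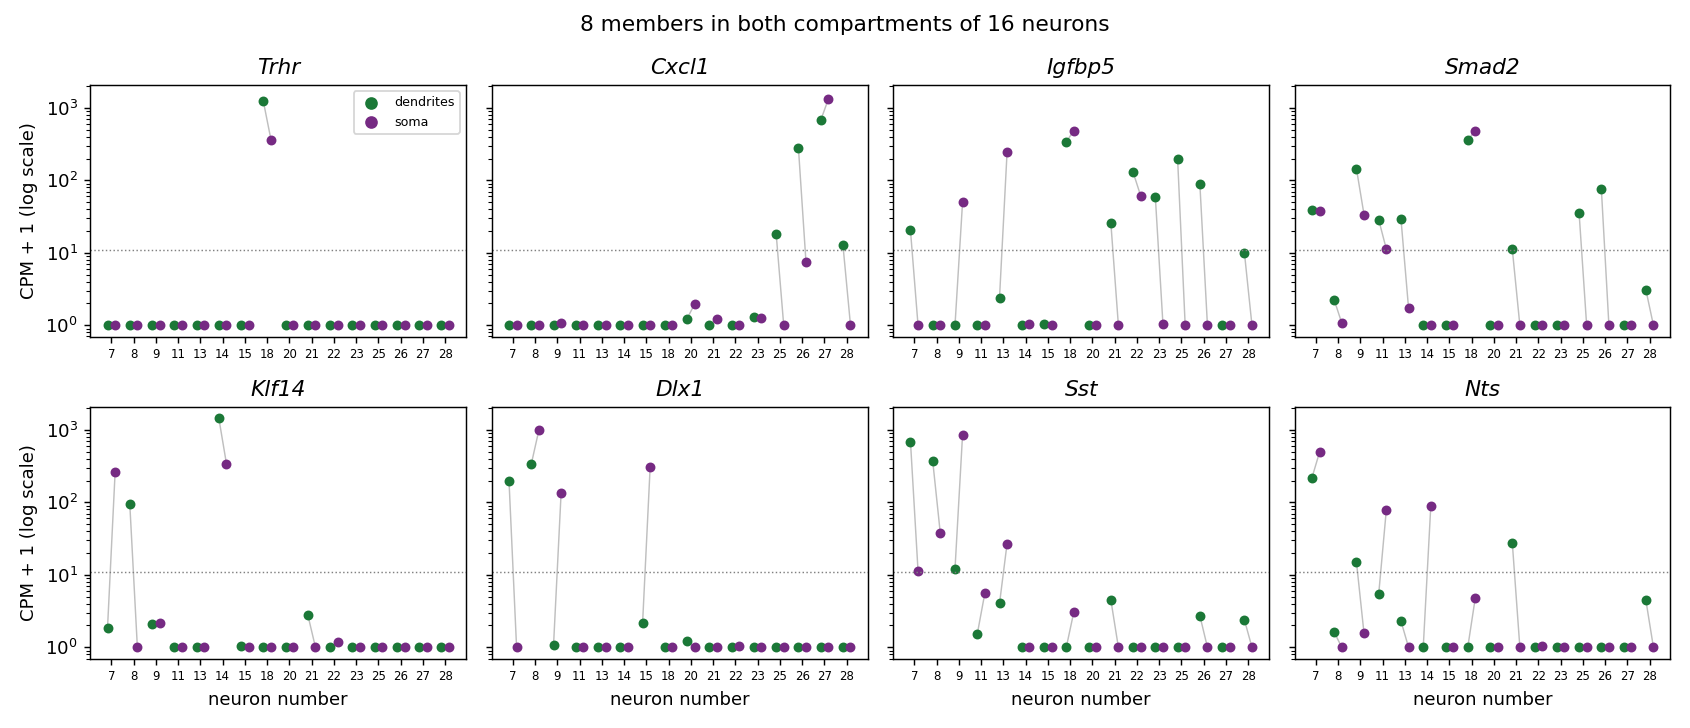
Level of 8 members in the dendrites (green, left) and soma (purple, right) of each of 16 neurons, as CPM + 1 on a log axis; a grey line joins the 2 compartments of a neuron and the dotted line marks 10 CPM. Trhr was above the line only in neuron 18, Cxcl1 was high in both compartments of neuron 27, and Dlx1 and Sst were high in dendrites 7, dendrites 8, soma 8 and soma 9 or in most of these.

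Some genes of inhibitory neurons were held by the same libraries. Dlx1 and Sst were the 2 members among the 20 measured inhibitory markers; Dlx1 is a homeobox gene that acts in the making of inhibitory neurons. Dlx1 had 337 and 197 CPM in the dendrites of neurons 8 and 7, against 987, 306 and 133 CPM in the somata of neurons 8, 15 and 9. Sst, the precursor of somatostatin, had 689, 371 and 11.02 CPM in the dendrites of neurons 7, 8 and 9, against 858, 36.6, 26.1 and 10.3 CPM in the somata of neurons 9, 8, 13 and 7. Both Dlx1 and Sst were therefore held by dendrites 7, dendrites 8, soma 8 and soma 9, and in dendrites 9 and soma 7 Sst was just above 10 CPM and Dlx1 was below it.

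The same 4 libraries held 5 other members: Sox2, a transcription factor of neural progenitors, Gria4, Cyp26b1, which breaks down retinoic acid, Wdfy1 and Rrp15. These names were picked after their values were seen. Dendrites 9 and soma 7 held none of Dlx1, Sox2, Gria4 and Cyp26b1. In the opposite direction, dendrites 9 and soma 7 held Gipr, the receptor of the gut hormone GIP, at 271 and 511 CPM and Nfrkb, a chromatin-remodelling subunit, at 432 and 366 CPM, and none of the 4 libraries held either gene. Nts went both ways: dendrites 7 and soma 7 had the 2 highest levels of it, but dendrites 9 held it too, from 219 counts. Without neurons 7, 8 and 9, Dlx1 was held by 1 library, soma 15, and Sst by 1, soma 13.

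Promoter stretches of Sst, Dlx1 and Nts are shown because Sst and Dlx1 were held by the same 4 libraries of neurons 7, 8 and 9, while Nts was highest in dendrites 7 and soma 7. The stretches run from 120 bases before the annotated start to 30 bases after it, in RefSeq's GRCr8 assembly, which is a later build than the rn6 assembly named for the deposited counts. Sst lies at chr11:90461426-90461575 on the plus strand, Dlx1 at chr3:76763744-76763893 on the plus strand and Nts at chr7:39460859-39461008 on the minus strand. Capitals mark TGACGTCA, the cyclic AMP response element.
Sst: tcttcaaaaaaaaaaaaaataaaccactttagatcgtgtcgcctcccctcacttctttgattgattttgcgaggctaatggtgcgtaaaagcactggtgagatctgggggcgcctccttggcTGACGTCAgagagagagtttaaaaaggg
Dlx1: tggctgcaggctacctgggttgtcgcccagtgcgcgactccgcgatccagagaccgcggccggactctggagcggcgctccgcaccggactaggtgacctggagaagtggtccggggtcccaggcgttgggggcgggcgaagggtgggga
Nts: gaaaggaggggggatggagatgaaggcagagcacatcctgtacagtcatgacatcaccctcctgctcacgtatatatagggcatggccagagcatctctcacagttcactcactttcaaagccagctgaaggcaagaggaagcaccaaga
The element reads the same on both strands; in Sst it begins at base 3 of the annotated transcript. Over the whole window of 250 bases before to 50 bases after the start, 6 of the 159 members with a promoter in the table held it (3.77%): Giot1, Sst, Map3k13, Hic2, Maff and Hps5. It was present in 525 of all 27457 promoters listed there (1.91%). A match of letters is a description and does not show that the site was used.

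Among the members, 4 are markers of cells other than neurons, and in 3 of them the other markers of that cell type were missing where the member was high. Mrc1, the mannose receptor of macrophages, had 559 CPM in dendrites 27 and less than 10 CPM in every other library. In dendrites 27, 14 of the 17 other microglia and macrophage markers were at 0 and their sum was 0.123 CPM; Aif1, Cx3cr1, C1qa, C1qb, C1qc, Cd68 and Cd74 were at 0 in all 32 libraries. Ttr, which carries thyroid hormone and is abundant in the choroid plexus, had 485 CPM in dendrites 20, where 8 of 8 other markers of ependyma and choroid plexus were at 0. Kdr, a receptor of vascular endothelial growth factor, had 469 CPM in dendrites 23, where 15 of the 19 other markers of vascular cells and fibroblasts were at 0 and the highest was Sparc at 29.4 CPM. Slc1a3, an astrocyte glutamate transporter, differed from these 3. Its 436 CPM in dendrites 25 stood beside 11 of 17 other astrocyte markers held there, which summed to 1418 CPM, and their part in its level was not tested. Over all libraries the summed astrocyte markers ranged from 93.3 to 2875 CPM in dendrites and from 65.7 to 777 CPM in somata.

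No member came from the lists of oligodendrocyte, oligodendrocyte precursor, excitatory neuron, dividing cell, red blood cell, skin, striated muscle or testis markers. Grouped by the start of the symbol, 10 members (5.0%) were zinc finger or BTB genes, against 1.54% of the other 10313 genes with 16 or more zeros. Olfactory and vomeronasal receptors had no member, whereas 1377 of those other genes (13.4%) belonged to them. Ribosomal proteins and respiratory chain subunits had none either, but they were also rare among those other genes, at 0.136% and 0.107%. Solute carriers gave 6 members (3.0%, against 2.29% of the others). The contrast with the olfactory receptors follows in part from the ranking, which took only genes with a high value somewhere.

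By function, 129 members were placed in 9 groups after their values had been seen, and 71 were not placed. Transcription and chromatin regulators were the largest group, with 32 members, of which 15 peaked in dendrites and 17 in somata. RNA processing and ribosome assembly had 15 members, with 4 peaks in dendrites and 11 in somata; Upf2, a factor of nonsense-mediated decay, had 1300 CPM in dendrites 25 against 159 CPM in soma 25, and Trmt13, which methylates tRNA, peaked at 978 CPM in soma 22. DNA repair and cell cycle genes had 9 members, with 6 peaks in dendrites and 3 in somata, among them Xpa, which recognises damaged DNA, with 7.43 CPM in dendrites 20 against 613 CPM in soma 20. The library paired with the peak held none of those 9, against 41 of all 200 members. Without neurons 7, 8 and 9 the paired library also held none of them, against 32 of 199 members. Away from the peak the group did share members: both compartments of some neuron held 7 of the 9, against 88 of all 200 members. Of 18 genes of glycan synthesis, the secretory pathway and the lysosome, 10 peaked in dendrites and 8 in somata; Ppt1, a lysosomal thioesterase, had 181 CPM in dendrites 18 against 614 CPM in soma 18. Every one of the 9 groups had peaks in both compartments.

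Adhesion and surface proteins included Podxl, the sialomucin podocalyxin, with 530 CPM in dendrites 26 against 1216 CPM in soma 26. Its highest library was soma 27 at 1440 CPM, and dendrites 27 had 0. Cgnl1, a junction protein, had 153 CPM in dendrites 18 against 1278 CPM in soma 18. Among transporters and channels, Kcnd1, an A-type potassium channel, was held by both compartments of neuron 21, at 222 CPM in the dendrites against 570 CPM in the soma, and of neuron 26, at 106 CPM in the dendrites against 156 CPM in the soma.

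The number of members that a library held was similar in dendrites and somata. Dendrite libraries held 33.1 ± 12.9 members (SD, n = 16; range 15 to 61) and soma libraries 31.4 ± 14.5 (SD, n = 16; range 12 to 59). The dendrites of a neuron held more than its soma in 8 of 16 neurons, and the mean difference was 1.75 ± 11.8 members (SD, n = 16). The members together took 0.328 to 1.23% of the counts of a dendrite library and 0.344 to 1.49% of those of a soma library. Across the 32 libraries, which share neurons in pairs, Spearman's rho between total counts and members held was 0.0598, as a description. The shallowest library held 37 members and the deepest dendrite library, that of neuron 27, held 15. Libraries also differed in how many genes of any kind they held. Dendrites 9 and soma 13, with 61 and 59 members, held 4562 and 4801 genes. Dendrites 27 and soma 27, with 15 and 12 members, held 2464 and 2418. The order was not strict, since dendrites 26 held 4051 genes but 28 members. The part of this difference in the number of members held was not tested.

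Peaks were spread unevenly. The highest library was a dendrite library for 107 members (53.5%) and a soma library for 93, and for the other genes with 16 or more zeros the dendrite share was 55.7%. Dendrites 22 held the peaks of 14 members, dendrites 14 and 28 of 13 each, and soma 28 of 17, so that neuron 28 alone accounted for 30. Soma 13 held 59 members and the peak of none. Holding many members and holding their peaks were thus different properties of a library.

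**Figure D3:**
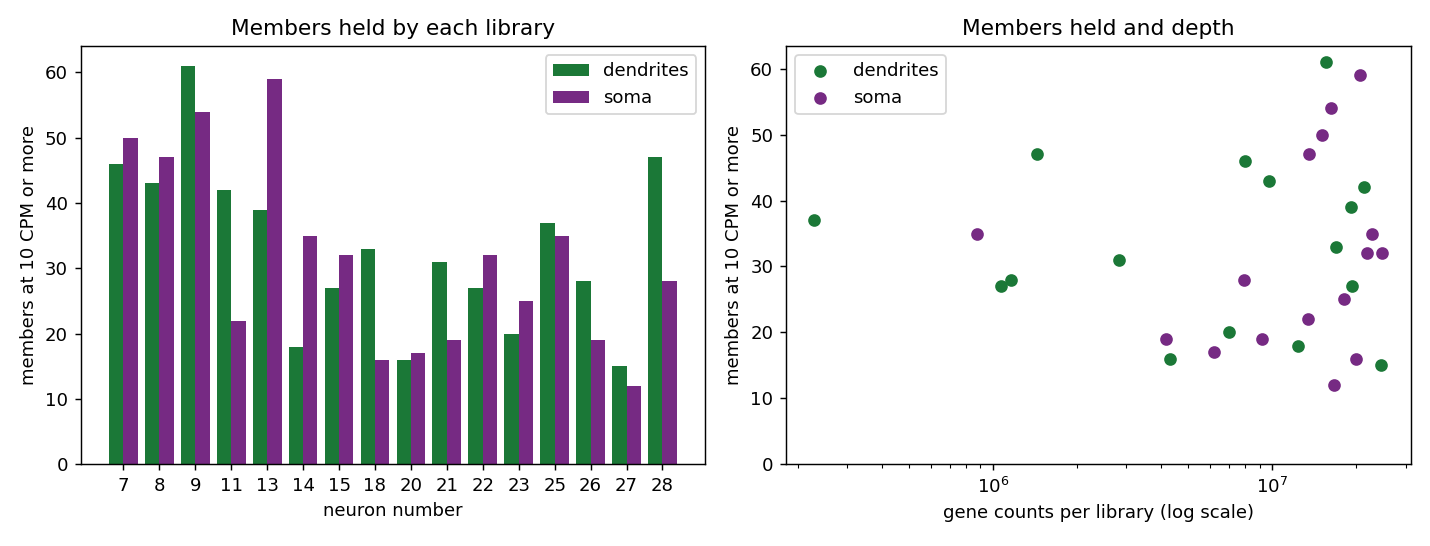
Left, number of members at 10 CPM or more in the dendrites (green) and soma (purple) of each neuron. Right, the same numbers against the gene counts of the library on a log axis; the 5 shallowest libraries held 27 to 47 members, within the range of 12 to 61 of all libraries.

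Members that peaked in 1 library often had a few counts in particular other libraries. Of the 17 members that peaked in soma 28, 16 had a count above 0 in dendrites 28, of which 13 were below 10 CPM and the median was 2.79 CPM; 54.1% of the other members had a count there. In soma 20 and soma 21, 12 and 12 of the 17 had counts, with medians of 0.324 and 0.218 CPM, against 16.0% and 22.5% of the other members. The 5 members that peaked in dendrites 27 had counts in soma 27, dendrites 23, soma 23 and dendrites 26 without exception, all below 10 CPM and with medians of 0.18 to 3.46 CPM. These pairs were picked after the values were seen. The threshold of 10 CPM leaves most such traces out of the counts of libraries that hold a member, but not all. In dendrites 28, Wipf1, Atp2b4 and Harbi1 passed it on 17, 16 and 28 counts. They therefore count as held there, also where the dendrites and soma of neuron 28 are compared. In dendrites 20, Pls3, Catsper2, E2f1, Gipr, Hps5, Wdfy1 and Fam3a passed 10 CPM on 44 to 125 counts. The same genes had 1779 to 28502 counts in dendrites 13, a pair that was also picked after the values were seen. They count among the members held by dendrites 20.

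A soma shared more members with its own dendrites than with the dendrites of other neurons, on average, but the spread between neurons was wider than the difference. Of the members held by a soma, its own dendrites held 24.4 ± 13.5% and the dendrites of the other 15 neurons held 17.5 ± 2.86% (SD, n = 16 somata). The difference was 6.88 ± 12.7 percentage points, and it was positive in 11 of 16 neurons. The own dendrites were the best match of all 16 in 2 neurons, 9 and 18, and in neuron 28 they tied with dendrites 9 at 28.6%. For soma 9 the own dendrites held 37.0%, against 35.2% in dendrites 7, the next. Dendrites 9, which held the most members, were the best match among other neurons' dendrites for 12 of the 16 somata. Since the members were chosen in these libraries, the difference is given without a test.

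The neurons varied widely. In neuron 18 the dendrites held 56.2% of the soma's 16 members, against a mean of 19.6% for the other dendrites; the shared members included Trhr, Igfbp5, Smad2, Ppt1 and Cgnl1. Smad2, a transducer of TGF-beta signals, had 365 CPM in dendrites 18 against 477 CPM in soma 18. In neuron 28 the own dendrites held 28.6%, against a mean of 11.2% for the others, and dendrites 9 held as much. In neuron 25 the own dendrites held 31.4%, against a mean of 17.3% for the others, but dendrites 9 held 45.7%. In neurons 20 and 27 the order was the other way: in neuron 20 the own dendrites held 0% and the others 17.3%, and in neuron 27 the own dendrites held 8.33% and the others 17.8%. Neurons 7, 8 and 9, whose labels are in doubt, had 32%, 36.2% and 37.0% in their own dendrites, against 17.3%, 18.4% and 20.6% in the dendrites of other neurons. Such a share also depends on how many members the own dendrites hold: 16 in neuron 20, 15 in neuron 27 and 47 in neuron 28. The 16 in neuron 20 include those given above that passed 10 CPM on 44 to 125 counts. As a share of the dendrites' members that somata held, the mean was 22.7% in the own soma against 16.4% in others. Neurons 20 and 27 kept their order (0% against 13.3%, and 6.67% against 15.6%). The order turned in neurons 11 (14.3% against 20.2%), 26 (14.3% against 19.3%) and 14 (33.3% against 12.6%).

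**Figure D4:**
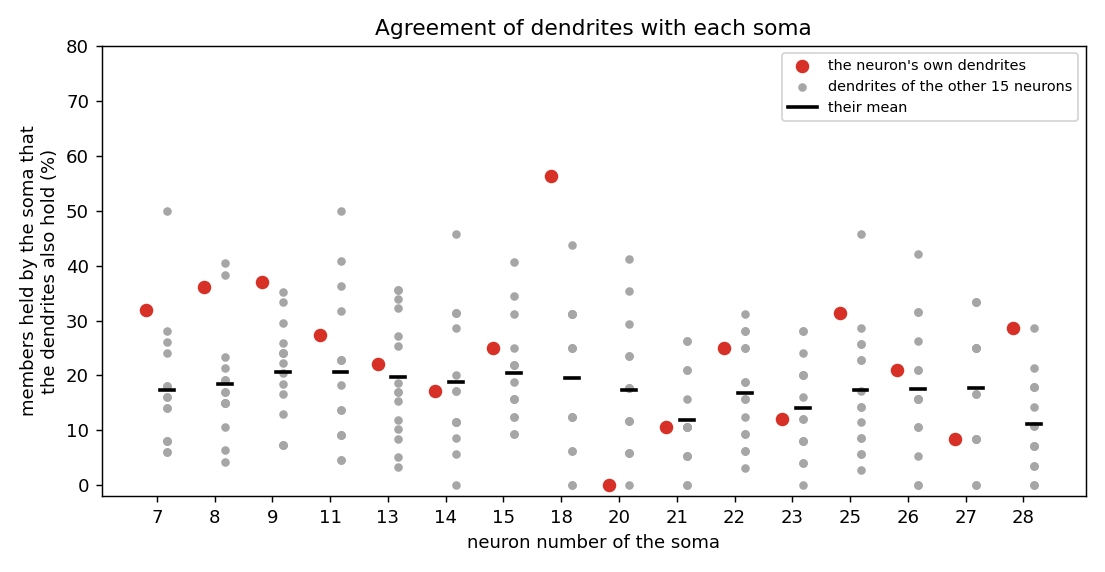
Share of the members held by each soma that dendrites also held, in percent, for the neuron's own dendrites (red) and for the dendrites of each of the other 15 neurons (grey, black bar at their mean). The red point lies above the bar in 11 of 16 neurons, is highest at 56.2% in neuron 18 and is at 0% in neuron 20.

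The same measure in other genes gave smaller differences. Among the other 10313 genes with 16 or more zeros, own dendrites held 13.7% of the genes held by the soma, against 11.1% for the dendrites of other neurons, a difference of 2.58 ± 7.06 percentage points (SD, n = 16). Among the genes with fewer zeros the values were 68.8% against 67.6%. Leaving out neuron 18 lowered the members' difference to 4.92 points, and leaving out neuron 20 gave 7.70, the ends of the range over all 16 neurons left out in turn. Without neurons 7, 8 and 9 it was 7.61 ± 13.5 points, positive in 9 of 13 neurons, and that of the other genes with 16 or more zeros was 2.38 ± 6.89 points (SD, n = 13).

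Seen from the peak, the paired library held the member for 41 of 200 members (20.5%), against 12.6% for the other libraries of that compartment. It was at 100 CPM or more for 17 members (8.5%, against 4.47% for the other libraries), and it was at 0 for 47.5% of members, against 65.6% for the other libraries. Without neurons 7, 8 and 9 the share held was 32 of 199 (16.1%), against 10.1% for the other libraries, and the share at 100 CPM or more was 13 of 199 (6.53%), against 4.10% for the other libraries. The 17 included Trhr, Cxcl1, Klf14, Pls3, Upf2, Cgnl1, Dlx1, Nts, Igfbp5 and Smad2, described above, and Acvrl1, an endothelial receptor of bone morphogenetic proteins, with 731 CPM in dendrites 14 against 132 CPM in soma 14. Resp18, a protein of the secretory pathway of endocrine cells, had 500 CPM in dendrites 14 against 177 CPM in soma 14. For most members the library of the peak held the gene and its partner did not.

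Pairs of libraries from different neurons shared few members, with exceptions among neurons 7, 8 and 9. The members held by both libraries of a pair were, on average, 13.2 ± 7.03% of those held by either in the 16 pairs from the same neuron, and 8.68 ± 5.59% in the 240 pairs of dendrites and soma from different neurons. Without neurons 7, 8 and 9 the values were 11.3 ± 6.35% in 13 pairs and 6.91 ± 4.46% in 156 pairs. The 12 pairs of libraries from different neurons among 7, 8 and 9 shared 20.7 ± 4.98%, close to the 21.4% of the 3 same-neuron pairs there. The other 468 pairs of different neurons shared 8.37 ± 5.06% (SD over pairs, which share libraries). The highest value, 29.1%, was between dendrites 9 and soma 7, which had 25 members in common, of the 61 in dendrites 9 and the 50 in soma 7. Dendrites 11 and soma 13 followed with 26.2% and dendrites 7 and soma 8 with 25.7%.

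**Figure D5:**
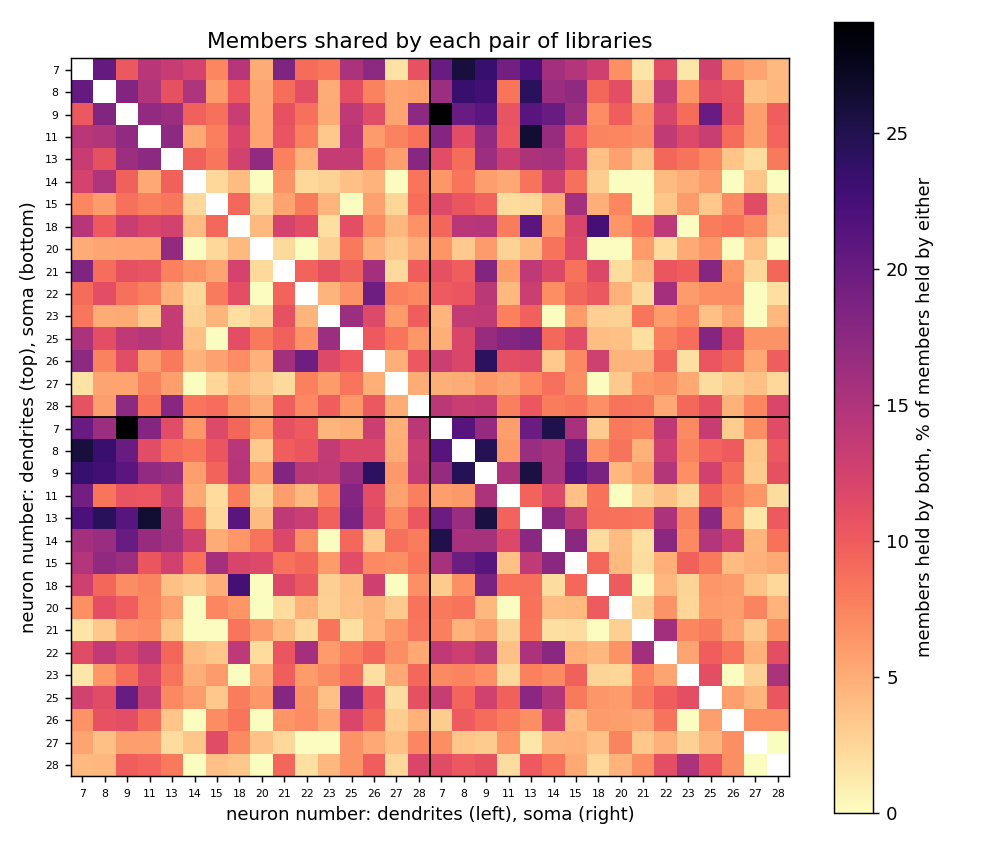
Members held by both libraries of a pair as a percentage of those held by either, for all pairs of the 16 dendrite libraries (left and top) and 16 soma libraries (right and bottom). The darkest cell, 29.1%, joins dendrites 9 and soma 7, and the cells among neurons 7, 8 and 9 average 20.7% where the neurons differ.

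Whether a member's presence in a soma went with its presence in the dendrites of the same neuron was tested by gene, with Fisher's exact test over the 16 neurons (two-sided) and Benjamini-Hochberg adjustment over all 5264 genes that 2 to 14 somata and 2 to 14 dendrites held. No gene passed (percentage called 0.0), and none of the 118 members tested did; 82 members were held by too few libraries to enter. With 16 neurons the smallest p that a gene can reach is 0.000155 (exact), and 0.000229 for the margins of the members, so that a gene associated alone could not have passed, and about 17 genes at that smallest p would have been needed. The absence of calls was therefore largely set by the design and says nothing about whether presence was associated. At an unadjusted p under 0.05 there were 4 members (3.39% of those tested) and 143 of all genes (2.72%), so the members' share was near the background. The smallest p-values were those of Sst and Tox, a nuclear regulator of lymphocyte development, each present on both sides in 3 neurons, in the soma alone in 1 and in neither in 12 (exact p = 0.00714, adjusted p = 1.0). Sst owed its 3 pairs to neurons 7, 8 and 9, with dendrites 9 and soma 7 at 11.02 and 10.33 CPM, and Tox owed 2 of its 3 to neurons 7 and 9. Gfra2, the neurturin receptor, in neurons 11 and 25, and Xpa, in neurons 9 and 13, followed with an exact p = 0.025 each, and Extl2, a glycosyltransferase of heparan sulfate, had an exact p = 0.05 (adjusted p = 1.0 each).

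Differences in level between dendrites and somata were tested with edgeR's quasi-likelihood test, with the neuron as a block. None of the 200 members passed edgeR's filter on low counts, so no member was tested there; of the 4916 genes tested, 0 were called at an adjusted p under 0.05 (percentage called 0), and 129 (2.62%) had an unadjusted p under 0.05. With no replicate block 0 were called and 336 (6.83%) had an unadjusted p under 0.05; DESeq2 with the block called 406 of the same genes (8.26%), none of them a member, since the members were not among them. With the filter lifted, all 200 members were among 13879 genes tested, and 1 gene was called (0.00721%). That gene was Adam1a, with a log2 fold change of dendrites over soma of 4.14 ± 0.839 (SE, adjusted p = 0.0112 by edgeR). This SE was worked back from the F statistic of the test. Adam1a was higher in the dendrites of 9 neurons and in the soma of 3. Without neuron 20, which holds its peak, the log2 fold change was 2.95 with an adjusted p of 0.988, so the call rests on that neuron; without neurons 7, 8 and 9 they were 6.95 and 6.16e-11. In that test 24 of the 200 members (12%) had an unadjusted p under 0.05, against 424 of all genes (3.05%). The members were chosen for a high value in at least 1 library, so this excess is given as a description. Of the members, 130 had a positive and 70 a negative log2 fold change with a median of 0.77, against 60.8% positive and a median of 0.32 over all genes tested.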

How the data were processed

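The deposited files hold whole-number read counts per gene and per spike-in RNA for each of the 32 libraries; the authors' assembly was rn6, per the submitters' processing notes, and the aligner, annotation and use of strand are not given in the sources used here. Spike-in rows (92 of 17308) were left out of library totals, and CPM was computed from the rest in Python 3.11.15 with pandas 2.3.3. The members, the gene lists and the function groups were chosen with earlier results of these data known. Presence in soma and dendrites was compared with Fisher's exact test (scipy 1.17.1). Levels were compared with edgeR 4.0.16 in R 4.3.3 (TMM, filterByExpr, robust quasi-likelihood fit, neuron as block, Benjamini-Hochberg adjustment, threshold 0.05), with DESeq2 1.42.0 and limma 3.58.1 as alternatives. The tests were tried on simulated data with known answers. For edgeR these data drew only on genes that passed the filter. They held no member and say nothing about the test on genes of this kind. The block comes from the series text, by which the 2 samples of a number are from 1 cell. With the block, the edgeR p-values set the difference between dendrites and soma against its spread over these 16 neurons. The Fisher p-values are exact probabilities of presence counted over the neurons and measure no spread. Intervals of counting error would not cover amplification.

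Named genes were the 12 members with the highest maximum, the 5 highest held by 1 library, the 5 smallest p-values of the presence test, up to 4 members of each list and the 3 genes on either side of each limit; the part of the rule that takes members from the edgeR test named none, because no member was tested there, and other genes were named after their values were seen. Reads from overlapping genes and near-identical copies could not be told apart here. Of the 200 symbols, 191 matched the RefSeq table directly and 9 through a synonym. Some members are not reported here.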

Additional observations from a re-analysis of the deposited data

Results flagged for a closer look

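Rows left out by the rule on names also held signals of this kind. Among rows with names that begin with LOC, RGD or Mir, 5 had a count of 0 in 16 or more libraries and a highest level above that of the last member. The highest was an RGD row at 1324 CPM in soma 8, and the others lay between 439 and 557 CPM. They were not used in any comparison.

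Spike-in RNAs, which were left out of the totals, had counts in every library, with 1110 in the fewest, the dendrites of neuron 25, and 231023 in the most, the soma of neuron 27. They were not used to scale the members.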

How the results depend on the processing

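The difference between own and other dendrites in members shared with a soma stayed positive under 25 alternatives, at 5.31 to 8.39 percentage points apart from the neurons left out in turn, which gave 4.92 to 7.70; the member set itself changed in 3 of them. The presence test called no member under its alternatives, which its design largely fixed and which shows no stability. The dendrite share of peaks stayed between 47.0 and 56.5%. The share of members held by 1 library (7.0%) was 0.5% with 1 count as the threshold, 34.5% with 100 CPM, 13% without neurons 7, 8 and 9, and 43.0% with members chosen at 24 or more zeros. The highest overlap between libraries of different neurons (29.1%) was 54.2% with 1 count, between somata 8 and 9, 16.7% with 100 CPM, between dendrites 8 and soma 13, and 19.0% with 24 or more zeros, between dendrites 11 and soma 7. Dropping the filter on low counts gave 1 called gene, 1 called member; DESeq2 called 406 genes (274 higher and 132 lower in dendrites) where edgeR called 0, no member among them, and the cause was not tested. limma-voom called 0, and edgeR with no replicate block (the neuron) called 0 genes, with 336 at an unadjusted p under 0.05 against 129 with the block. In fits added after seeing the data, the unfiltered test called 0 members without neuron 20 and 1 gene, 1 member without neurons 7, 8 and 9, and the filtered test without neurons 7, 8 and 9 called 0 genes and tested no member. Without neurons 20 and 25, 9 members passed the filter and 0 were called. In dendrites 25, 10 CPM is about 3 counts, so low levels there are uncertain.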
